A study of Mus musculus with 33 samples.

Results

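A set of 10 cytoskeletal and muscle-related genes, out of 35349 gene symbols counted, was followed through kidneys lacking 1 or both copies of Six2. They are the 4 alpha-actinins (Actn1, Actn2, Actn3 and Actn4), the 4 tropomyosins (Tpm1, Tpm2, Tpm3 and Tpm4), the intermediate filament gene Des and the ubiquitin ligase gene Trim63. They were taken by symbol, and 4 of them (Actn3, Tpm2, Des and Trim63) were included because they are lower in Six2 mutants. The values that chose these 4 are their counts in the mutant and wild-type kidneys themselves, so their genotype differences are described here without a test. The errors and intervals printed for these 4 do not allow for that choice, which can make the differences look larger. They are not to be read as a test. The other 6 genes complete the families and were tested. All 10 passed the filter on low counts in every comparison.

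Alpha-actinins are antiparallel dimers that crosslink actin filaments. Actn1 and Actn4 are the forms of non-muscle cells, where they sit in stress fibres and adhesions, and Actn4 is also needed in the podocyte of the kidney. Actn2 and Actn3 are the forms of the muscle Z-disc, where actin filaments of neighbouring sarcomeres are anchored. Tropomyosins are coiled coils that lie along actin filaments and set which motors and binding proteins reach them, and each of the genes yields several proteins by alternative promoters and splicing. Des encodes desmin, the intermediate filament that ties Z-discs together in muscle and that is also made by some mesenchymal cells, and Trim63 encodes MuRF1, a ligase that marks sarcomere proteins for breakdown. Six2 is the homeodomain factor of the cap mesenchyme, where it holds nephron progenitors back from differentiation.

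RNA came from whole mouse kidneys, snap-frozen at embryonic day 11.5 or 15.5 (E11.5, E15.5). The E11.5 groups were 6 wild-type, 5 heterozygous Six2 and 5 knockout Six2 kidneys, and the E15.5 groups were 4 wild-type and 4 heterozygous Six2 kidneys, which makes 24 specimens in 33 libraries. Which libraries belong to 1 specimen was inferred from titles, sexes and technical replicate numbers. The labels do not give how the Six2 allele was made, a strain, or whether a specimen is 1 animal or a pool, and p-values therefore measure the spread among these specimens, whatever its source. Total counts per library ran from 10819256 to 42073021. Ribosomal RNA genes took over 5% of the counts in 6 libraries, all E11.5 batch 1: all 3 wild-type libraries of that batch, 2 heterozygous and 1 knockout. Levels are given as CPM, counts scaled to a common library size after correction for composition between libraries.

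Six2 itself followed the labels. At E11.5 wild-type kidneys held 25.0 ± 5.63 CPM of it (SD, n = 6), heterozygotes 13.1 ± 2.88 (n = 5) and knockouts 0.473 ± 0.134 (n = 5). At E15.5 wild-type kidneys held 11.7 ± 0.834 CPM and heterozygotes 6.15 ± 0.342 (n = 4 each). The kidney genes Pax2, Wt1, Ret, Foxd1 and Gdnf averaged 19.8, 163, 65.2, 140 and 42.7 CPM in the wild-type E11.5 group.

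The names of several of these genes come from muscle, so markers of muscle were measured beside them. Skeletal muscle markers were low in most E11.5 kidneys and higher in a few. Ckm, the muscle creatine kinase, had 0 counts in every wild-type and knockout kidney and 0 to 11 in heterozygotes. The myogenic factor Myod1 had 1 to 6 counts in wild type, 0 to 60 in heterozygotes and 1 to 4 in knockouts, and Myog had 0 to 47, 0 to 88 and 0 to 5. Skeletal actin, Acta1, averaged 1.65, 1.23 and 1.15 CPM in these groups, and titin, Ttn, spanned 3.86 to 52.3, 3.90 to 57.1 and 4.3 to 15.5 CPM. The summed level of 40 skeletal muscle genes at E11.5 was 105 to 195 CPM for wild type, 78.4 to 187 for heterozygotes and 96.8 to 139 for knockouts, with 3, 3 and 6 of the 40 at 0 in the whole group. The 15 smooth muscle genes summed to 384 to 761 CPM for wild type and 385 to 624 for knockouts. The summed level of 22 nephron progenitor genes was 1640 to 2310 CPM for wild type, 1600 to 2210 for heterozygotes and 999 to 1180 for knockouts. That list holds Six2 itself and was chosen with earlier results of these data known. Its lower sum in knockouts was therefore partly fixed in advance and is given as a description. In whole kidneys, fewer cells of a type and less RNA per cell cannot be told apart.

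The DNA just before the start sites of Tpm2, Des and Trim63 is shown because these genes are the ones with a promoter entry among the 4 that are lower in the mutants. The sequences are from the RefSeq promoter table on GRCm38.p6, 5′ to 3′ on the gene's strand, and end at the base before the annotated start, except that for Tpm2 only the stretch outside every annotated exon is given. Capitals mark matches to motifs known from muscle genes: the E-box CAGCTG, the MCAT element (CATTCC, or GGAATG on the other strand) and the TATA box TATAAA.
Tpm2 chr4:43523766-43523804 (minus strand): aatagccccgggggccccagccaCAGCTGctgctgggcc
Des chr1:75360042-75360291 (plus strand): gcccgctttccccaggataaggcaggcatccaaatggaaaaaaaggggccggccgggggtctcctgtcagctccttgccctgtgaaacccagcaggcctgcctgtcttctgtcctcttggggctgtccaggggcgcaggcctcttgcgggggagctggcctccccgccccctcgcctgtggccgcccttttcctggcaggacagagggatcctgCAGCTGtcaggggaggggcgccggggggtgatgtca
Trim63 chr4:134314870-134315119 (plus strand): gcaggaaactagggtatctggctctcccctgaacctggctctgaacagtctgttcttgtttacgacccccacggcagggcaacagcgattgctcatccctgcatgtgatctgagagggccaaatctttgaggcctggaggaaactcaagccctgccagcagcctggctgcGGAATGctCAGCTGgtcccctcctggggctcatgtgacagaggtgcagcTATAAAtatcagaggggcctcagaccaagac
The E-box CAGCTG lay at position -227 in Tpm2, -36 in Des and -72 in Trim63, counting the base before the RefSeq start as -1. The GENCODE start of Tpm2, at 43523765, lies inside its RefSeq window, so the Tpm2 position depends on the start used. An entry was found for 9 of the 10 genes, Actn3 being the one without. In the 250 bases before the start, 3 of 3 of the mutant-lowered genes with an entry and 1 of the other 6 (Tpm3, at -175) held this E-box, which 13% of 32851 such windows of all genes hold on either strand. Trim63 also held an MCAT element at -80 and a TATA box at -31, found in 12.6% and 12.4% of all windows. The MEF3 site TCAGGTT was found in Actn2 alone among the 9 (3.49% of all windows), and the CArG box, the binding site of serum response factor, in none of them (1.47%). These matches describe letters and not binding, and MCAT also occurred in Actn4 and Tpm1.

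The 10 genes lie on 9 chromosomes of GRCm38 (GENCODE vM21), all of them protein coding. The alpha-actinin genes are Actn1 (ENSMUSG00000015143, chr12:80167547-80260371), Actn2 (ENSMUSG00000052374, chr13:12269426-12340760), Actn3 (ENSMUSG00000006457, chr19:4861216-4877909) and Actn4 (ENSMUSG00000054808, chr7:28893248-28962340), each on the minus strand. The tropomyosin genes are Tpm1 (ENSMUSG00000032366, chr9:67022590-67049406, minus), Tpm2 (ENSMUSG00000028464, chr4:43514711-43523765, minus), Tpm3 (ENSMUSG00000027940, chr3:90072649-90100902, plus) and Tpm4 (ENSMUSG00000031799, chr8:72134975-72153142, plus). Des (ENSMUSG00000026208, chr1:75360329-75368579) and Trim63 (ENSMUSG00000028834, chr4:134315120-134329629) are on the plus strand. The annotation gives Tpm1 21 transcripts, 16 of them coding, and Tpm3 16, 7 of them coding, against 2 and 1 for Tpm4. Counts are per gene, so muscle and non-muscle tropomyosin forms of 1 gene were not separated, and how reads shared between family members were counted is not given in the sources used here.

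In wild-type kidneys at E11.5 the tropomyosin Tpm4 had by far the highest level per length, 224 ± 19.2 CPM per kb (SD, n = 6). Next came Tpm1 (58.9 ± 17.0 CPM per kb), Actn1 (55.3 ± 6.02), Tpm2 (52.4 ± 11.9), Des (47.9 ± 8.25), Actn4 (38.9 ± 7.90) and Tpm3 (35.5 ± 4.73). From Tpm1 to Tpm3 in this order, the mean ± SD ranges of each gene and the next overlapped. Actn3 followed at 23.0 ± 6.45 CPM per kb. The ligase gene Trim63 was at 2.33 ± 0.694 and the muscle alpha-actinin Actn2 at 0.319 ± 0.172 CPM per kb. This order depends on 1 deposited length per gene, 2212 bases for Tpm4 against 6498 for Tpm1 and 6099 for Tpm3, which need not be that of the transcripts present. Without division by length the gap was smaller, with Tpm4 at 495, Tpm1 at 382 and Tpm3 at 217 CPM.

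Among the alpha-actinins, Actn3 was lower with each Six2 copy lost. The lowest, median and highest of the 6 wild-type kidneys at E11.5 were 37.3, 63.9 and 87.5 CPM. The 5 heterozygous kidneys had 37.4, 31.9, 31.0, 39.7 and 39.6 CPM and the 5 knockouts 15.5, 14.4, 17.4, 23.6 and 30.4 CPM. Every knockout was below every heterozygous kidney, and the heterozygous kidneys overlapped with wild type only at the lowest wild-type kidney. Within batch 1 the ranges of wild type, heterozygous and knockout were 37.3 to 65.0, 31.0 to 31.9 and 14.4 to 17.4 CPM, and within batch 2 they were 62.8 to 87.5, 39.6 to 39.7 and 23.6 to 30.4 CPM, with no overlap among these kidneys inside either batch. The heterozygous kidney with libraries in both batches is in neither set of ranges, and its 37.4 CPM is just above the lowest batch 1 wild-type kidney. Knockouts stood at 31.4% of wild type (95% interval, without allowance for the choice of the gene, 25.7 to 38.4%), a log2 difference of -1.67 ± 0.14 (SE). Heterozygous kidneys stood at 52.7% of wild type (-0.92 ± 0.13).

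At E15.5 Actn3 was again lower in heterozygous kidneys. The 4 wild-type kidneys had 16.02, 15.92, 15.96 and 15.38 CPM and the 4 heterozygous kidneys 7.34, 6.31, 6.52 and 7.29 CPM, with a wide gap between the groups. This is 43.2% of wild type, a log2 difference of -1.21 ± 0.05.

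The other alpha-actinins were not called by edgeR in knockout against wild-type kidneys. Actn1, the main alpha-actinin of non-muscle cells, ran from 174 through a median of 211 to 235 CPM in wild type, and the knockouts had 204, 192, 199, 222 and 218 CPM, inside the wild-type range. The difference was -0.01 ± 0.05 on the log2 scale (edgeR adjusted p = 0.946), and its interval allows a knockout level of 91.7 to 107% of wild type. Actn4, the podocyte form, ran from 170.3 through 171 to 249 CPM in wild type, and the knockouts had 162, 179, 159, 163 and 158 CPM. Of the 5 knockouts 4 were below every wild-type kidney, with a log2 difference of -0.25 ± 0.08 (edgeR adjusted p = 0.0749) and a level of 84% of wild type (74.5 to 94.6%). This value lies close to the threshold: it passed with DESeq2 (adjusted p = 0.0308), with no filter (0.0489), without wild-type replicate 1 (0.0145) or without knockout replicate 4 (0.0431). In batch 2 alone it was -0.08 ± 0.06 (edgeR adjusted p = 0.677), where wild type spanned 170.3 to 171 CPM, and without the libraries rich in ribosomal RNA it was -0.18 (0.329).

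Actn2 was close to the floor of these libraries, with 4 to 47 counts per wild-type kidney at E11.5. Heterozygous kidneys had 3.23, 0.595, 0.481, 0.804 and 0.928 CPM and knockouts 0.820, 1.07, 0.925, 1.46 and 0.756 CPM. The knockout difference of -0.21 ± 0.51 (edgeR adjusted p = 0.874) has an interval of 41.1 to 183% of wild type. A change inside that interval was therefore not resolved. Wild-type kidneys alone spanned 0.273 to 2.22 CPM, and the source of this spread was not tested. The highest Actn2 values, 3.23 CPM in heterozygous replicate 1 and 2.22 CPM in wild-type replicate 6, were in the E11.5 kidneys with the highest skeletal muscle sums (187 and 195 CPM). The same kidneys had 57.1 and 52.3 CPM of Ttn, the giant sarcomere protein titin, and 88 and 47 counts of the myogenic factor Myog. Their Actn3 levels, 37.4 and 87.5 CPM, were at the middle and the top of their groups.

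**Figure D1:**
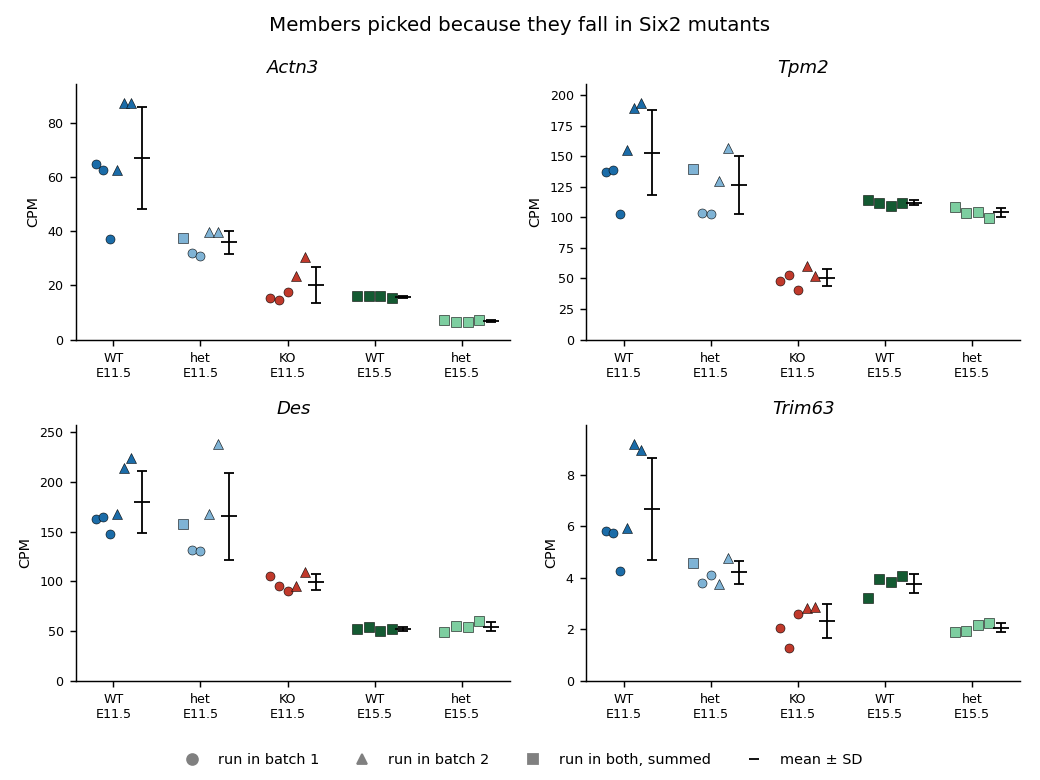
Level in CPM (vertical axis, from 0) of Actn3, Tpm2, Des and Trim63 in each specimen, by genotype and stage (horizontal axis). Circles are specimens of batch 1, triangles of batch 2 and squares specimens with runs of both batches summed, and bars give the mean ± SD. For all 4 genes the E11.5 knockouts lie below every heterozygous kidney. For Actn3, Tpm2 and Trim63 the E15.5 heterozygous kidneys lie below every wild-type kidney, and for Des they overlap. The genes were picked because they are lower in mutants, so this separation is a description. How many of all genes separate in this way was not counted.

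Among the tropomyosins, Tpm2 was the one picked as lower, and knockouts held 34.2% of the wild-type level. The wild-type E11.5 kidneys ran from 103 through a median of 147 to 194 CPM. Heterozygous kidneys had 139.8, 104, 103, 129.8 and 157 CPM and the knockouts 47.9, 53.2, 40.5, 60.0 and 51.8 CPM. The knockouts were far below both other groups, which overlapped. The 95% interval of the knockout level was 29.4 to 39.8% of wild type (log2 difference -1.55 ± 0.10), and the heterozygous level was 84.1% (-0.25 ± 0.10). At E15.5 the wild-type kidneys had 114, 112, 109.6 and 112 CPM and the heterozygous kidneys 108, 103, 105 and 99.9 CPM, a small gap without overlap (92.6% of wild type, -0.11 ± 0.02).

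Tpm1, Tpm3 and Tpm4 were not called by edgeR in knockout against wild-type kidneys. Tpm1, expressed in muscle and many other cells, ran from 235 through 396 to 530 CPM in wild type and from 300.2 to 424 CPM in knockouts (0.02 ± 0.19, edgeR adjusted p = 0.98, 76 to 135% of wild type). Tpm3 averaged 217 ± 28.8 CPM over the wild-type kidneys (SD, n = 6) and 203 ± 24.8 over the knockouts (n = 5), a difference of -0.06 ± 0.04 (edgeR adjusted p = 0.419, 90.3 to 102%). Tpm4, the most abundant per length, was at 495 ± 42.5 CPM in wild type and 526 ± 44.0 in knockouts (0.07 ± 0.06, edgeR adjusted p = 0.604, 95.6 to 115%). The groups of all 3 genes overlapped, and the spread of Tpm1 leaves room for a change in either direction.

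Des was lower in knockouts, while heterozygous and wild-type kidneys shared a range. In wild type at E11.5 the lowest, median and highest kidneys had 147, 166.5 and 224 CPM. The heterozygous kidneys had 158, 131, 131, 168 and 238 CPM, and the knockouts 106, 95.1, 89.9, 95.6 and 110.0 CPM. All 5 knockouts were below every other E11.5 kidney. Knockouts stood at 56.1% of the wild-type level (95% interval 48.6 to 64.7%; -0.83 ± 0.10) and the heterozygous level 93.7% (-0.09 ± 0.10). In batch 1 alone the heterozygous difference was -0.36 ± 0.10, where the 2 heterozygous kidneys with batch 1 libraries only were at 131 CPM and wild type at 147 to 165. At E15.5 the wild-type kidneys had 51.9, 54.5, 49.9 and 51.8 CPM and the heterozygous kidneys 49.0, 54.7, 54.5 and 59.9 CPM, with overlap (104%, 0.06 ± 0.04).

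Trim63 was a weakly expressed gene with a pattern like that of Actn3. The wild-type E11.5 kidneys ran from 4.27 through 5.87 to 9.19 CPM, on 66 to 190 counts each. Heterozygous kidneys had 4.56, 3.81, 4.12, 3.77 and 4.78 CPM, and knockouts 2.05, 1.26, 2.59, 2.80 and 2.85 CPM on 13 to 50 counts. Every knockout was below every heterozygous kidney, and 2 heterozygous kidneys were above the lowest wild-type kidney. Knockouts stood at 36.7% of the wild-type level (27.8 to 48.3%; -1.45 ± 0.19) and the heterozygous level 63.9% (-0.65 ± 0.18). At E15.5 the wild-type kidneys had 3.22, 3.95, 3.85 and 4.06 CPM and the heterozygous kidneys 1.90, 1.93, 2.16 and 2.25 CPM, without overlap (54.4%, -0.88 ± 0.10).

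Over all genes, edgeR's quasi-likelihood test with Benjamini-Hochberg adjustment called 3.06% of 16141 genes higher and 4.03% lower in knockout than in wild-type E11.5 kidneys. Of the 6 tested members 0 were called in this comparison, with 1 (Actn4) at an unadjusted p of 0.05 or less and 1 by DESeq2. For heterozygous against wild-type kidneys at E11.5 the shares were 0.0124% higher and 0.0558% lower, and again 0 of 6 members were called (adjusted p from 0.608 for Tpm4, at 0.13 ± 0.06, to 0.966 for Tpm1). At E15.5 the shares of 18244 genes were 0.208% and 0.362%, and 0 of 6 members were called, with adjusted p from 0.783 to 0.994. In both heterozygous comparisons 0 of the 6 reached an unadjusted p of 0.05 and 0 were called by DESeq2. The 4 picked members are not counted here, since the same contrasts chose them. Without the libraries rich in ribosomal RNA their knockout differences were -1.65 for Actn3, -1.66 for Tpm2, -0.88 for Des and -1.52 for Trim63.

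Loss of the second copy was read from knockout against heterozygous kidneys, a comparison that shares its specimens with those above. Tpm2 stood at 40.6% of the heterozygous level (-1.30 ± 0.11), Trim63 at 57.4% (-0.80 ± 0.20), Actn3 at 59.6% (-0.75 ± 0.15) and Des at 59.9% (-0.74 ± 0.11). With a block for the prefix that library titles share, whose meaning the labels do not give, in place of batch, these were -0.77 ± 0.15 for Tpm2, -0.33 ± 0.36 for Trim63, -0.19 ± 0.27 for Actn3 and -0.39 ± 0.18 for Des. In batch 1 alone Des was at -0.32 in this comparison. Of the other 6 members 0 were called by edgeR and 2 (Actn4 and Tpm3) reached an unadjusted p of 0.05, where 0.892% of all genes were called higher and 2.79% lower. Tpm3, at -0.13 ± 0.04 (edgeR adjusted p = 0.118), passed with DESeq2 (-0.14, adjusted p = 0.04), and Actn4 was at -0.23 ± 0.09 (edgeR adjusted p = 0.173).

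**Figure D2:**
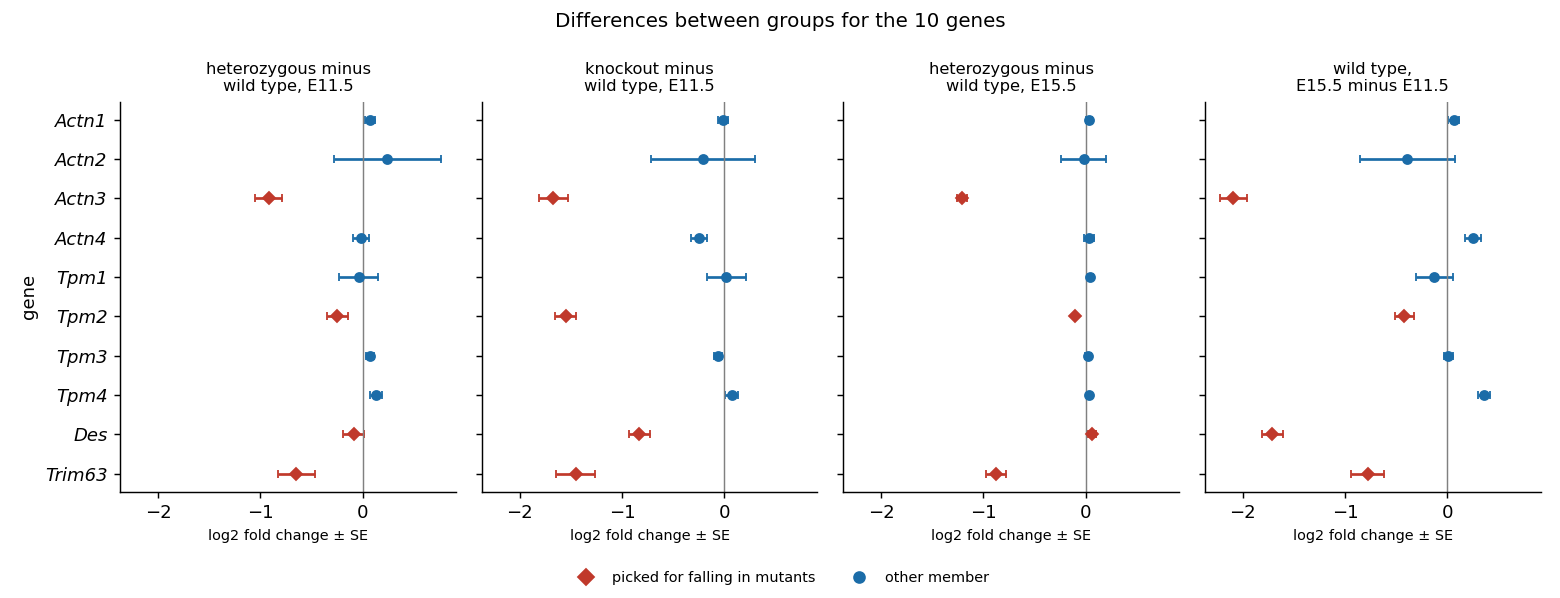
Log2 difference ± SE (horizontal axis) of each of the 10 genes in 4 comparisons, one panel each: heterozygous minus wild type and knockout minus wild type at E11.5, heterozygous minus wild type at E15.5, and wild type E15.5 minus E11.5. Red diamonds are the 4 genes picked because they are lower in mutants; in the knockout panel they lie between -1.67 and -0.83 and the other 6 between -0.25 and 0.07.

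Whether losing 1 copy had another effect at E15.5 than at E11.5 was asked with an interaction term over all 24 specimens. It called 0% of 17362 genes higher and 0.00576% lower, and 0 of the 6 tested members (all at edgeR adjusted p = 1, with 0 at an unadjusted p of 0.05 and 0 by DESeq2). For the picked members the difference between the stages' heterozygous effects was -0.30 ± 0.18 for Actn3, -0.24 ± 0.22 for Trim63, 0.15 ± 0.13 for Tpm2 and 0.16 ± 0.13 for Des. For Trim63 it was -0.57 in batch 1 alone and 0.09 in batch 2 alone.

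Between E11.5 and E15.5 Tpm4 rose in wild-type kidneys, and Actn3 and Des stood much lower at the later stage. The wild-type E11.5 kidneys of this comparison are among those whose values chose Actn3, Tpm2, Des and Trim63, so these 4 are given as a description and the other 6 were tested. Of the 6, 2 rose and 0 fell, where 34% of 17362 genes rose and 32.1% fell. Actn3 stood at 23.5% of its E11.5 level (-2.09 ± 0.13), with 67.1 ± 18.8 CPM (SD, n = 6) at E11.5 and 15.8 ± 0.297 (n = 4) at E15.5. Des stood at 30.5% (-1.71 ± 0.10), with 180.2 ± 31.1 and 52.0 ± 1.88 CPM. The ranges of both genes at the stages did not overlap. Trim63 stood at 58.3% (-0.78 ± 0.16) and Tpm2 at 75% (-0.42 ± 0.09), and in batch 1 alone Trim63 was at -0.39 ± 0.20. Markers of other cell types also moved with stage: 12 of 22 nephron progenitor genes fell and 4 rose (median -0.46), and 10 of 10 neuron and glia genes fell (median -3.19). Their part in the levels of the 10 members was not tested.

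Tpm4 rose to 128% (0.36 ± 0.06, edgeR adjusted p = 8.35e-06), from 495 ± 42.5 to 628 ± 11.5 CPM, and every E15.5 kidney was above every E11.5 wild-type kidney. Actn4 rose to 119% (0.25 ± 0.08, edgeR adjusted p = 0.00766), but not without batch in the model (0.23, 0.0896), in batch 1 alone (0.02, 0.896) or without wild-type E15.5 replicate 2 (0.22, 0.0522). Actn1, Tpm1, Tpm3 and Actn2 were not called (adjusted p of 0.259, 0.532, 0.766 and 0.469). Tpm3 changed sign between batches, at 0.13 (edgeR adjusted p = 0.0156) in batch 1 alone and -0.12 (0.0341) in batch 2 alone. The labels do not say that the batches of the E11.5 and E15.5 libraries are the same ones, so stage and the handling of each library set cannot be told apart.

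In the heterozygous kidneys of both stages, a comparison added after the data were seen, the values were -2.39 ± 0.14 for Actn3, -1.55 ± 0.09 for Des, -1.02 ± 0.16 for Trim63 and -0.26 ± 0.09 for Tpm2. These kidneys are also among those that chose the 4 genes, so this again is a description. Of the tested members, Tpm4 was at 0.27 ± 0.06 (edgeR adjusted p = 0.000316) and Actn4 at 0.31 ± 0.08 (0.002). Of 14 tested smooth muscle genes 7 rose and 0 fell in wild-type kidneys with stage, where 34% of 17362 genes rose and 32.1% fell. The summed level of that list went from 384 to 761 CPM in wild-type E11.5 to 939 to 1030 CPM in wild-type E15.5 kidneys. The part of smooth muscle in the level of Des was not tested.

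**Figure D3:**
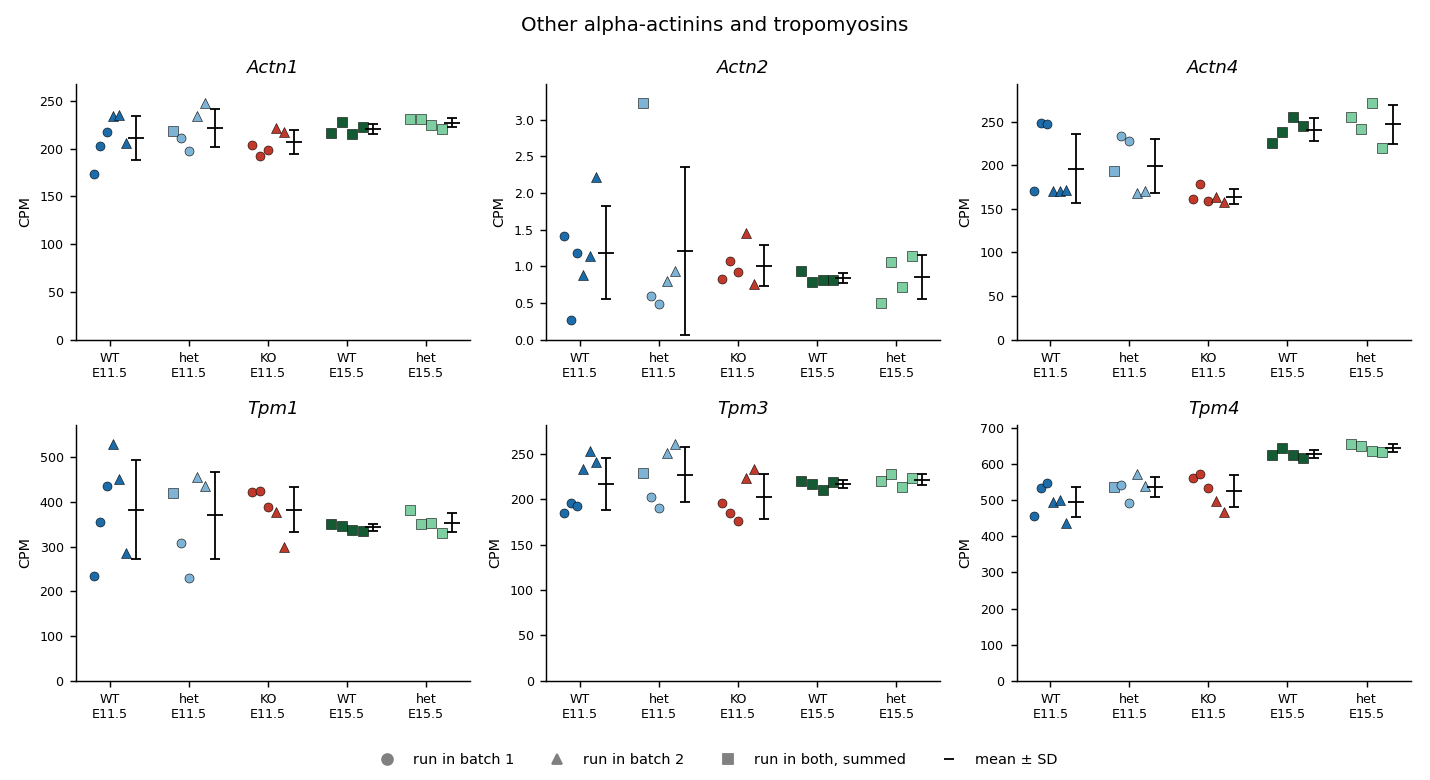
Level in CPM (vertical axis, from 0) of the 6 members not picked by value, Actn1, Actn2, Actn4, Tpm1, Tpm3 and Tpm4, in each specimen, by genotype and stage (horizontal axis), with the same symbols and mean ± SD bars as in the plot of Actn3, Tpm2, Des and Trim63. The genotypes overlap in every panel at E11.5 and the Tpm4 values at E15.5 (616 to 656 CPM) lie above those at E11.5.

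The make-up of each family was described by the share of each gene in the family's summed CPM per kb. These shares depend on the 1 deposited length per gene. Actn3 made up 19.62 ± 5.322% of alpha-actinin level in wild-type, 11.19 ± 1.311% in heterozygous and 7.339 ± 2.076% in knockout kidneys at E11.5 (SD; n = 6, 5 and 5). Actn1 made up 47.01, 52.71 and 57.63% in these groups, and the family's sum was 117.5, 110.0 and 93.83 CPM per kb. At E15.5 the Actn3 share was 4.888% in wild-type and 2.129% in heterozygous kidneys, and the family's sum was 111.1 and 110.9 CPM per kb. Tpm2 made up 14.21 ± 3.350% of tropomyosin level in wild-type, 11.36 ± 1.334% in heterozygous and 5.023 ± 0.8286% in knockout kidneys at E11.5, while Tpm4 made up 60.53, 64.1 and 68.44%. The tropomyosin sum was 370.7, 380.3 and 347.4 CPM per kb in these groups. Shares within a family sum to a whole, so a lower share of 1 gene raises the others.

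**Figure D4:**
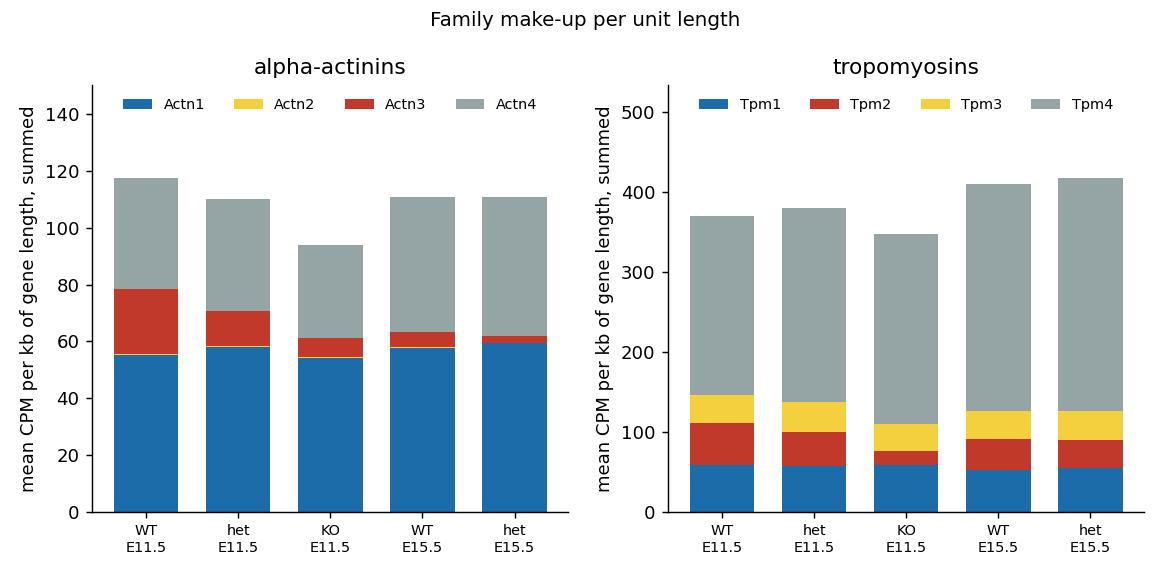
Mean CPM per kb of each alpha-actinin and each tropomyosin (stacked, vertical axis from 0) by genotype and stage (horizontal axis). The Actn3 and Tpm2 layers thin from wild type to knockout at E11.5, and Tpm4 is the largest tropomyosin layer in every group.

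Partners of these genes were followed in lists that hold none of the 10 members, with the shares of all genes given above as the background. In knockout against wild-type kidneys, 0 of 21 tested Z-disc and actin-anchoring genes rose and 3 fell, with a median log2 difference of -0.01 against -0.002 over all genes. They were Myoz1, a calcineurin-binding Z-disc protein (-2.24 ± 0.48, edgeR adjusted p = 0.00822), Nebl, the nebulin relative nebulette (-1.85 ± 0.42, 0.012), and Tcap, the titin cap (-1.60 ± 0.37, 0.013). All 3 are weak: Myoz1 averaged 0.731 CPM over wild-type kidneys and 0.154 over knockouts, on at most 20 and 6 counts. The call of Myoz1 was lost in 4 of 20 alternative settings (adjusted p up to 0.139), that of Nebl in 4 of 26 (up to 0.226) and that of Tcap in 5 of 22 (up to 0.345). Among these was a single kidney left out, knockout replicate 5 for Myoz1 and Nebl (0.0507 and 0.0544) and knockout replicate 4 for Tcap (0.0537). At E15.5, 1 of 23 of these genes fell in heterozygous kidneys, again Myoz1 (-1.16 ± 0.15, edgeR adjusted p = 0.00268), which averaged 0.989 ± 0.134 CPM over wild-type kidneys and 0.443 ± 0.0848 over heterozygotes (SD, n = 4 each).

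The dystrophin complex links actin filaments to the membrane and matrix. Of its 14 tested genes 2 rose and 4 fell in knockouts (median 0.09). The dystrobrevins Dtna and Dtnb fell, at -0.98 ± 0.13 (edgeR adjusted p = 0.000204) and -0.66 ± 0.06 (6.68e-06). The call of Dtnb was lost in 0 of 26 alternative settings and that of Dtna in 2, batch 1 alone and the title-prefix block. Dtnb averaged 57.7 ± 5.73 CPM over wild-type kidneys (SD, n = 6), 54.7 ± 1.59 over heterozygotes and 36.3 ± 2.24 over knockouts (n = 5 each), and its heterozygous kidneys lay inside the wild-type range. Dtna averaged 16.1 ± 2.16, 8.62 ± 1.18 and 8.24 ± 1.77 CPM in the same groups. In heterozygous kidneys Dtna was the called gene of this list at E11.5 (-0.86 ± 0.13, edgeR adjusted p = 0.0146) and at E15.5 (-0.62 ± 0.05, 8.33e-05). The E11.5 call was lost in 10 of 26 alternative settings, 6 of which leave out 1 kidney, and the E15.5 call in 0 of 15.

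Of 40 skeletal muscle genes 21 were tested in knockouts, and 2 of these rose and 1 fell (median -0.21, against -0.002 over all genes). The fast troponin Tnnt3 rose (0.57 ± 0.13, edgeR adjusted p = 0.014; 0.0546 without knockout replicate 5). The calls of the troponin Tnni2 (0.92 ± 0.26, 0.0384) and of the calcium channel gene Ryr1 (-0.35 ± 0.10, 0.0395) were each lost on leaving out any of 10 of the 16 kidneys. None of Acta1, Mylpf and Ttn was called, at -0.63 ± 0.61, -0.31 ± 0.30 and -0.77 ± 0.81. Of 14 smooth muscle genes 1 rose and 1 fell (median -0.30). The one that fell was Itga8 (-0.93 ± 0.09, edgeR adjusted p = 6.07e-06), an integrin subunit that is also on the nephron progenitor list, and the call of Mylk (0.29 ± 0.08, 0.0462) was lost on leaving out any of 12 kidneys. The contractile genes Acta2, Actg2, Myh11 and Cnn1 were at -0.57 ± 0.65, -0.53 ± 0.61, -0.20 ± 0.52 and -0.38 ± 0.54 and were not called.

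Other partner lists were counted in knockouts in the same way, where 3.06% of all genes rose and 4.03% fell. Of 18 tropomyosin partners and filament-end proteins 1 rose, the cofilin Cfl2 (0.18 ± 0.05, edgeR adjusted p = 0.0228), which lost its call without wild-type replicate 6 (0.0548), knockout replicate 1 (0.0504) or knockout replicate 5 (0.126). Of 19 intermediate filament genes and partners 1 fell, nestin (Nes, -0.30 ± 0.06, 0.00727), a call lost in 5 of 26 alternative settings, among them each batch alone. Of 10 relatives of MuRF1 and genes of muscle protein breakdown 3 fell: Fbxo32, the ligase atrogin-1 (-0.38 ± 0.10, edgeR adjusted p = 0.0354), Bnip3 (-0.36 ± 0.09, 0.0239) and Foxo4 (-0.21 ± 0.05, 0.03). These calls were lost on leaving out any of 8, 4 and 6 kidneys. Of 7 genes of serum response factor and its cofactors 1 fell, Srf itself (-0.22 ± 0.05, 0.0115; 0.0831 without knockout replicate 5). Of 22 nephron progenitor genes, a list that holds Six2 itself, 13 fell and 0 rose, with a median of -0.93.

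Against heterozygous kidneys, Itga8 (-0.90 ± 0.10, edgeR adjusted p = 5.04e-05), Dtnb (-0.57 ± 0.07, 0.000155) and Nes (-0.31 ± 0.07, 0.0184) fell in knockouts and Dmd, which encodes dystrophin, rose (0.25 ± 0.07, 0.05), and 0 genes were called in the skeletal muscle, Z-disc, tropomyosin partner, protein breakdown and serum response factor lists. The call of Dmd was lost in 21 of 26 alternative settings, that of Dtnb in 3 and that of Itga8 in 1. The call of Nes was lost in 7 and its sign turned in 1, the title-prefix block (0.10, adjusted p = 0.614). The kidneys whose omission lost it were heterozygous replicate 5 (adjusted p = 0.0502), knockout replicate 4 (0.0536) and knockout replicate 5 (0.0929).

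The same lists were counted for stage in wild-type kidneys, where 34% of 17362 genes rose and 32.1% fell. Of 23 Z-disc and actin-anchoring genes 7 rose and 6 fell, among them Pdlim2 (1.75 ± 0.08, edgeR adjusted p = 3.22e-14), Nebl (1.42 ± 0.32, 0.000468, but 0.74 and 0.151 without the libraries rich in ribosomal RNA) and the actin crosslinker Palld (-1.31 ± 0.15, 8.32e-08). Of 19 tropomyosin partners 10 rose and 4 fell, led by villin (Vil1, 5.13 ± 0.18, 1.06e-16), a protein of epithelial microvilli, and gelsolin (Gsn, 1.81 ± 0.14, 1.47e-10). The smooth muscle genes that rose included the myosin kinase Mylk (2.04 ± 0.08, edgeR adjusted p = 1.22e-15) and Synpo2 (1.76 ± 0.17, 4.34e-09). Of 19 intermediate filament genes 8 rose and 6 fell, and of 14 dystrophin complex genes 8 rose and 3 fell.

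Genes beside the members were read as well, since the sources used here do not say whether counting used the strand. Actn3 lies 298 bases from Ctsf and 759 bases from Zdhhc24, both on the other strand. In knockouts Ctsf was at -0.01 ± 0.07 (edgeR adjusted p = 0.949) and Zdhhc24 at 0.02 ± 0.09 (0.929), against -1.67 for Actn3. At E15.5 Ctsf was called lower in heterozygous kidneys (-0.22 ± 0.04, edgeR adjusted p = 0.032), a call lost on leaving out any of 7 of the 8 kidneys. Tpm2 lies 982 bases from Car9, on the other strand, and Car9 fell in knockouts to 48.4% of wild type (-1.05 ± 0.21, edgeR adjusted p = 0.00545), but not in batch 1 alone (0.0795), batch 2 alone (0.323), without the libraries rich in ribosomal RNA (0.106) or with the title-prefix block (0.0855). Car9 averaged 3.36 ± 1.13 CPM over wild-type kidneys, 2.17 ± 0.400 over heterozygotes and 1.62 ± 0.132 over knockouts. Des overlaps the antisense gene Gm15179, which did not pass the filter on low counts. Actn4 overlaps Capn12 (-0.26 in knockouts, edgeR adjusted p = 0.705). Tpm4 overlaps Gm26586 and Gm16091, both on the other strand. With stage in wild type, Gm26586 was at -0.48 ± 0.17 (edgeR adjusted p = 0.0184) and Gm16091 at -0.31 ± 0.17 (0.114). Reads of such pairs cannot be told apart without strand.

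Genes whose level across the 16 E11.5 kidneys was most like that of a picked member are given as a description, since the genotype groups and batches are shared by all points. After batch and sex were removed, Actn3 was most like Sypl2, Shisa2, Cldn9, Tmem159 and Sipa1l2 (Pearson's r from 0.976 to 0.955). Tpm2 was most like Fxyd6, Phf19, Gm29418, Traf1 and Crym (0.979 to 0.973), and Des like Zfp516, 2310015B20Rik, Rps6ka2, Fam189a2 and Meox1 (0.976 to 0.957). For Trim63 the nearest were Ccdc6, Espn, Actn3, Crhr1 and Tmem159 (0.956 to 0.949), so that 1 of its nearest 5 was Actn3 itself.

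With the group means also removed, which leaves the spread inside a genotype, Actn3 and Trim63 still varied together (r = 0.72 over 16 kidneys, 0.95 before), and Tpm2 and Des did less so (0.57, 0.95 before). Actn3 and Tpm2 went from 0.88 to 0.42. Tpm1 and Tpm4, which were not picked, had r = 0.93 inside genotypes and 0.79 before. Against Six2 the values inside genotypes were 0.73 for Trim63, 0.60 for Actn3, 0.20 for Des and 0.13 for Tpm2, while over all 16 kidneys they were 0.90, 0.89, 0.93 and 0.97.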

How the data were processed

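Values are raw counts of reads for each gene symbol, as the authors deposited them, with a gene length in bases that is another deposited column, used here for levels per kb. The build mm10, the counter featureCounts 1.4.6 and the aligner STAR 2.4.0h1 are named, per the submitters' processing notes. Annotation, strand setting and the handling of reads that map to several places are not given in the sources used here. A sample was found for each column (0 unused). Per the labels' protocols, total RNA from an RNeasy micro kit went into standard Illumina libraries.

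Libraries read as runs of 1 specimen, an inference from the labels, were summed, giving 24 specimens. As a check, the batch 2 run closest to a batch 1 run was that of the same specimen for 8 of 8 specimens at E15.5 (correlation 0.157 to 0.53). Counts were tested with edgeR 4.0.16 (R 4.3.3, limma 3.58.1; alternative DESeq2 1.42.0): filterByExpr by group (minimum count 10, minimum total 15), TMM scaling, the quasi-likelihood F test, and Benjamini-Hochberg adjustment over all genes tested at 0.05. Models held genotype, sex and batch at E11.5, genotype and sex at E15.5, and group, sex and batch within E11.5 over all 24. Batch equals the replicate number of the E11.5 titles, so it is the replicate block there. Intervals are 95%. Correlations used log2 CPM (prior count 2).

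Members, lists and tests were chosen with earlier results of these data known. The stage comparison was planned as a test of all 10 members, but no p is given for the 4 picked ones, whose choice used the same kidneys. Named were all 10 members, at most the 3 called genes of largest change per list, the 5 genes most like each picked member and adjoining genes. A gene that this rule names is not reported here. Acta1, Mylpf, Ttn, Acta2, Actg2, Myh11 and Cnn1 are fixed muscle markers. Lists were also counted for renal stroma, ureteric bud, early nephron and podocyte, endothelium and pericyte, macrophage, and neuron and glia. The script was tested on simulated counts. Alternatives were other scaling, no filter, DESeq2, other covariates and blocks, single batches, leaving out libraries rich in ribosomal RNA, and leaving out each specimen.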

Additional observations from a re-analysis of the deposited data

Results flagged for a closer look

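Of 50 pairs of a gene and a group examined, 3 held a specimen far from the others by Dixon's ratio, which chance alone flags in about 1 of 20 groups. Actn2 in heterozygous E11.5 replicate 1 was at 3.23 CPM, with the other 4 kidneys at 0.481 to 0.928 CPM. Actn3 in wild-type E15.5 replicate 4 was at 15.38 CPM, with the others at 15.92 to 16.02 CPM, a small distance in a tight group. Actn4 in knockout E11.5 replicate 2 was at 179 CPM, with the others at 158 to 163 CPM. No heterozygous effect of a tested member differed between the stages by the interaction term.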

How the results depend on the processing

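For the 10 members, 1547 of 1570 alternative values were counted as unchanged, and 1037 of 1040 when 1 specimen was left out. A tested value counted as changed if it crossed the threshold, or turned sign while called in either fit. Values that turned sign without a call count as unchanged, such as Actn2 in heterozygous against wild-type E11.5 kidneys (-0.6 to 0.65 with 1 specimen left out). For the 4 picked genes outside the stage comparison, a value counted as unchanged if it moved by less than the SD of log2 CPM within groups. Counts of called genes depended more on the model. Without the replicate block, the 1144 genes called in knockout against wild type became 439, the 595 of knockout against heterozygous 154, and the 11 of heterozygous against wild type at E11.5 1. In batch 1 alone the 3 counts were 265, 7 and 0, in batch 2 alone 168, 56 and 2, and without libraries rich in ribosomal RNA 349, 299 and 1. A block for the title prefix gave 492 for knockout against wild type. DESeq2 gave 1015 for knockout against heterozygous and 43 for heterozygous against wild type, which was 32 with no filter. Leaving out 1 kidney gave 694 to 1180, 219 to 769 and 1 to 17. At E15.5 the 104 calls became 43 in batch 2 alone and 66 to 79 with 1 kidney left out. The 1 call of the interaction became 5 in batch 1 alone and 3 with DESeq2.

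With the title-prefix block, knockout against wild type was -1.31 for Actn3, -1.15 for Tpm2 and -1.10 for Trim63, against -1.67, -1.55 and -1.45. Tpm2 was at -0.89 in batch 1 alone for knockout against heterozygous. Values counted as reversed by the rule above were Trim63 in the interaction (0.09, batch 2 alone), Tpm3 with stage (-0.12, batch 2 alone), and with the title-prefix block Cfl2 in knockout against wild type (-0.20) and Nes in knockout against heterozygous (0.10). The cause was not tested. Same-numbered E15.5 specimens correlated at -0.2 to 0.317 over 4 pairs, and runs of 1 specimen at 0.157 to 0.53. These ranges overlap, so the check does not settle whether the numbers pair specimens. Actn2, Trim63, Myoz1 and Tcap rest on few counts, which limits their precision.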

Other observations

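Lists of other cell types were counted as well. In knockout against wild-type E11.5 kidneys 3.06% of 16141 genes rose and 4.03% fell. Of 9 macrophage genes 7 rose and 0 fell, and their summed level was 67.9 to 140 CPM in wild-type and 101 to 226 CPM in knockout kidneys. Of 10 early nephron and podocyte genes 4 rose and 0 fell, of 13 ureteric bud genes 4 rose and 3 fell, and of 15 renal stroma genes 1 rose and 1 fell. Of 9 endothelial and pericyte genes 1 rose and 0 fell, and so did 1 and 0 of 9 neuron and glia genes. Single called genes in lists this small are not read as a change of the list. The part of these cell types in the levels of the 10 genes was not tested.

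In wild-type kidneys between the stages 34% of 17362 genes rose and 32.1% fell. Of 26 skeletal muscle genes 3 rose and 6 fell, with Pax3 at -6.80, Myh8 at 3.61 and Mybpc1 at -2.83 on the log2 scale. Of 12 relatives of MuRF1 and genes of muscle protein breakdown 4 rose and 5 fell, with Fbxo40 at 5.93, Trim55, which encodes the relative MuRF2, at -2.74 and Mstn at -2.67. Of 7 genes of serum response factor and its cofactors 2 rose and 4 fell, with Mef2c at 0.92, Mef2a at 0.63 and Mkl1 at -0.62.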
